A study of Mus musculus with 8 samples.

Results

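Pancreatic α-cells were taken from single-cell RNA sequencing of mouse islets as barcodes in which *Gcg*, the glucagon gene, made up at least 50% of hormone UMIs. H, the hormone UMIs, was the sum of *Ins1*, *Ins2*, *Gcg*, *Sst*, *Ppy* and *Pyy*, and a barcode also needed H of at least 1% of its UMIs, at least 3000 UMIs, 200 to 5500 genes (replicate 1) or 200 to 6500 genes (replicate 2) and at most 10% mitochondrial UMIs. A UMI is a molecular tag that marks 1 captured transcript. The rule found 567 α-cells among 17426 barcodes, of which 10876 were within the limits on genes and mitochondrial UMIs, 8384 also had 3000 UMIs and 7639 were also hormone-rich. Because the hormone genes chose the cells, their values are described here and never tested.

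Islets of male C57BL/6 mice (C57BL6/J in the study's methods) aged 12 to 16 weeks were cultured for 18 h in 5.5 mM glucose. They were left untreated, given IL-1β (human recombinant, 10 U/mL) with IFN-γ (mouse, 150 U/mL), given the same cytokines with 2 mM NMMA, or given NMMA alone. Each of the 2 replicates was 1 pool of islets from 10 mice, split over the 4 conditions into 4 libraries. P-values of the comparisons between conditions therefore measure the spread between the 2 libraries of a condition, which differ in pool and in the version of the counting software. In the fits of α- against β-cells and of the *Nos2* split the library was a block. For α- against β-cells the p-values measure how a difference within a library varied between libraries. The *Nos2* split had 4 sums from 2 libraries, so its p-values rest mostly on a spread shared over genes. Cells of a library were never counted as replicates.

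α-Cells secrete glucagon, which raises blood glucose, and their identity is held by transcription factors such as *Irx1* and *Irx2*. IL-1β acts through NF-κB and IFN-γ through JAK kinases and the interferon regulatory factors, and together they induce iNOS, the product of *Nos2*, which makes nitric oxide from arginine. NMMA blocks iNOS, so a response that is present with cytokines and missing with cytokines + NMMA depends on nitric oxide production in the culture, which can come from any islet cell.

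The label was checked with factors that the rule did not use. Thinned to 8500 UMIs each, *Irx2* was found in 70.7 and 65.4% of untreated α-cells and in 0.7 to 3.1% of β-cells (*Ins1* + *Ins2* at least 90% of H, 6264 cells) over the 8 libraries, and *Irx1* in 68.0 and 53.1% of untreated α-cells and in 0 to 1.03% of β-cells. The values that the rule fixed are given as a description. *Gcg* was a median 12.4 to 27.9% of the UMIs of an α-cell in the 8 libraries, and 339 of the 567 cells had *Gcg* at 90% of H or more. The threshold fell in a sparse range: 13 cells lay at 45 to 50% of H, with a median insulin share of 44.1% of H, and 13 lay at 50 to 55%, with a median insulin share of 1.86%. Insulin transcripts remained, with *Ins1* at 0.53 to 2.69% and *Ins2* at 0.60 to 4.24% of the β-cell level per library. No α-cell barcode was shared between libraries. Summed over α-cells, macrophage markers came to 36 to 79 CPM and endothelial markers to 7 to 19 CPM per library. Mesenchymal markers came to 255 CPM in untreated replicate 1 and to 3 to 14 CPM elsewhere. Other lists were higher, each through 1 gene: ductal markers came to 1358 to 9742 CPM, almost all *Spp1* (1215 to 9562), with no *Cftr* UMI and at most 2.32 CPM of *Krt19*, delta-cell markers other than *Sst* to 1745 to 4650 CPM, almost all *Rbp4* (1741 to 4650), and β-cell markers other than insulin to 2430 to 10551 CPM, almost all *Iapp* (2302 to 10460). The ductal and β-cell sums were highest with cytokines + NMMA. Between 5 and 13 α-cells per library also had *Ppy* at 10% of H or more.

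The libraries held 26549922 to 50731370 UMIs over all barcodes, and their α-cells summed to 630054 to 1623706 UMIs. α-Cells numbered 91 and 95 in the untreated libraries (replicates 1 and 2, the order kept throughout), 38 and 57 with cytokines, 78 and 59 with cytokines + NMMA and 54 and 95 with NMMA. As a share of hormone-rich barcodes they were 4.63% (exact 95% interval 3.75 to 5.66) and 11.8% untreated, 3.20% (2.27 to 4.36) and 9.21% with cytokines, 9.89 and 10.3% with cytokines + NMMA, and 6.72 and 10.6% with NMMA. In each pool the cytokine library had the lowest share, but in 3 of the 4 conditions the replicates differed by more than the conditions of replicate 2 did.

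Cytokine-treated α-cells showed fewer genes at equal depth. Thinned to 8500 UMIs, a median α-cell showed 2792 and 2706 genes untreated, 2043.5 and 2225.5 with cytokines, 2731 and 2706 with cytokines + NMMA and 2764 and 2726.5 with NMMA. Both cytokine libraries lay under all 6 others, which did not separate by condition. Ribosomal protein genes took 17.59 and 21.15% of α-cell UMIs with cytokines, against 11.65 and 14.43% untreated, 10.45 and 13.89% with cytokines + NMMA and 10.30 and 14.92% with NMMA. *Gcg* was also a larger part of the UMIs in the first cytokine library, a median 27.9% against 20.2% untreated, but not in the second, 17.6% against 18.0%. The part of these shares in the lower gene number was not tested.

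**Figure D1:**
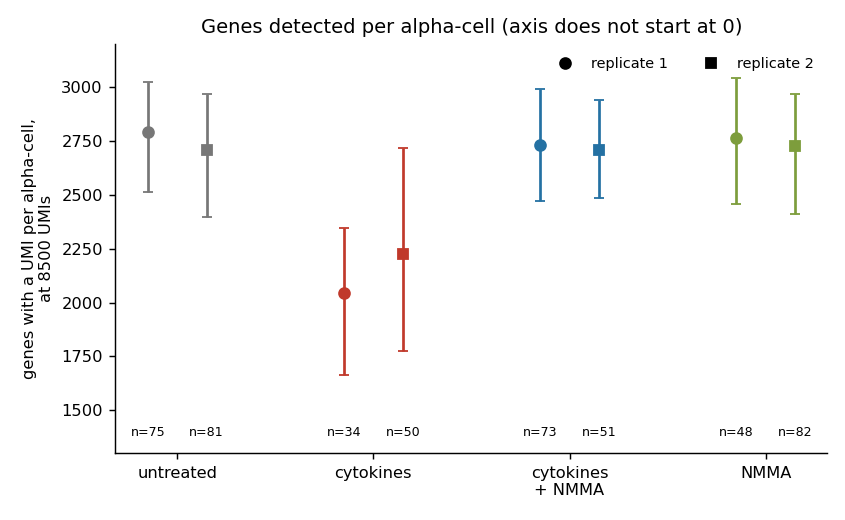
Genes with a UMI per α-cell after thinning each cell to 8500 UMIs, by library; each point is a library's median, the bars run from its 10th to its 90th percentile of cells, and the axis does not start at 0. The medians of the cytokine libraries, 2043.5 and 2225.5, lie under those of the other 6 libraries, which run from 2706 to 2792.

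α-Cell counts were summed per library and compared with edgeR's quasi-likelihood test over 9275 genes, with TMM scaling; levels are given as CPM (UMIs scaled to a fixed library total) and differences as log2 ± SE, and a gene was called at a Benjamini-Hochberg adjusted p under 5%. With cytokines, 1144 genes were higher than untreated (12.3% of those tested) and 716 lower (7.72%). Cytokines against cytokines + NMMA gave 534 higher (5.76%) and 483 lower (5.21%), and cytokines + NMMA against untreated gave 529 higher (5.7%) and 188 lower (2.03%). With the pool as a block the first comparison gave 1466 (15.8%) and 1038 (11.2%), the second 873 (9.41%) and 825 (8.89%), and the third 798 (8.6%) and 353 (3.81%). TMM scaled the cytokine libraries by 0.708 and 0.849 and the others by 1.05 to 1.13. Scaled by total UMIs instead, the median gene moved by -0.50 (log2) between cytokines and untreated, and the split of calls turned to 528 higher (5.69%) and 2267 lower (24.4%); cytokines against cytokines + NMMA then gave 209 higher (2.25%) and 1638 lower (17.7%). Levels below are thus relative to the bulk of α-cell genes, and a median of a gene list stands against an all-gene median of -0.01. Without untreated replicate 1 or 2 the first comparison called 1054 or 1084 genes; without cytokines replicate 1, or cytokines + NMMA replicate 1 or 2, the second called 589, 467 or 501; without untreated replicate 1 or 2, or cytokines + NMMA replicate 1, the third called 441, 428 or 432.

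Most transcription factors of α-cell identity fell with cytokines. Of 14 tested, 8 were lower and 0 higher than untreated (median log2 -1.15), and all 14 had a log2 difference under 0. As a set, the 14 were not shown to fall more in α-cells than in β-cells. Set against the response of β-cells (test given below), the median difference of the 14, α minus β, was -0.07. In that test 1 of the 14 was called in each direction, beside 1.75 and 1.45% of all genes. For factors found in few β-cells, such as *Irx1* and *Irx2*, that test cannot show a shared fall. *Isl1* (chr13:116298281-116309689, minus strand of GRCm38), an islet LIM-homeodomain factor, went from 238 and 240 CPM to 60.6 and 89.3, with 209 and 185 when NMMA was present. It fell by 1.64 ± 0.23 (adjusted p 7.2e-05) and differed from cytokines + NMMA by -1.36 ± 0.23 (adjusted p 0.00129). *Etv1*, an ETS factor, showed the same order, from 317 and 390 CPM to 137 and 112 and back to 312 and 364, with -1.52 ± 0.22 against untreated and -1.45 ± 0.22 against cytokines + NMMA. *Irx2* (chr13:72628820-72634198, plus strand) was at 155 and 138 CPM untreated, 44.9 and 64.6 with cytokines, 128 and 117 with cytokines + NMMA and 170 and 112 with NMMA. *Irx2* fell by 1.37 ± 0.25 on the log2 scale (edgeR adjusted p 0.001), and its difference from cytokines + NMMA, -1.12 ± 0.26 (adjusted p 0.00919), missed the threshold without replicate 1 of cytokines (0.0564) or of cytokines + NMMA (0.0584).

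*Irx1* was at 148 and 93.5 CPM untreated and 74 and 59.2 with cytokines, a log2 difference of -0.87 ± 0.32 that did not pass (adjusted p 0.0679) and passed with the block (-0.81, adjusted p 0.00301).

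Of the 14 factors, 5 were also lower with cytokines than with cytokines + NMMA (median -0.75; 8 with the block), and 1 was lower with cytokines + NMMA than untreated. At 8500 UMIs an *Irx2* UMI was found in 26.5 and 36.0% of α-cells with cytokines and 58.9 and 51.0% with cytokines + NMMA, against 70.7 and 65.4% untreated.

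**Figure D2:**
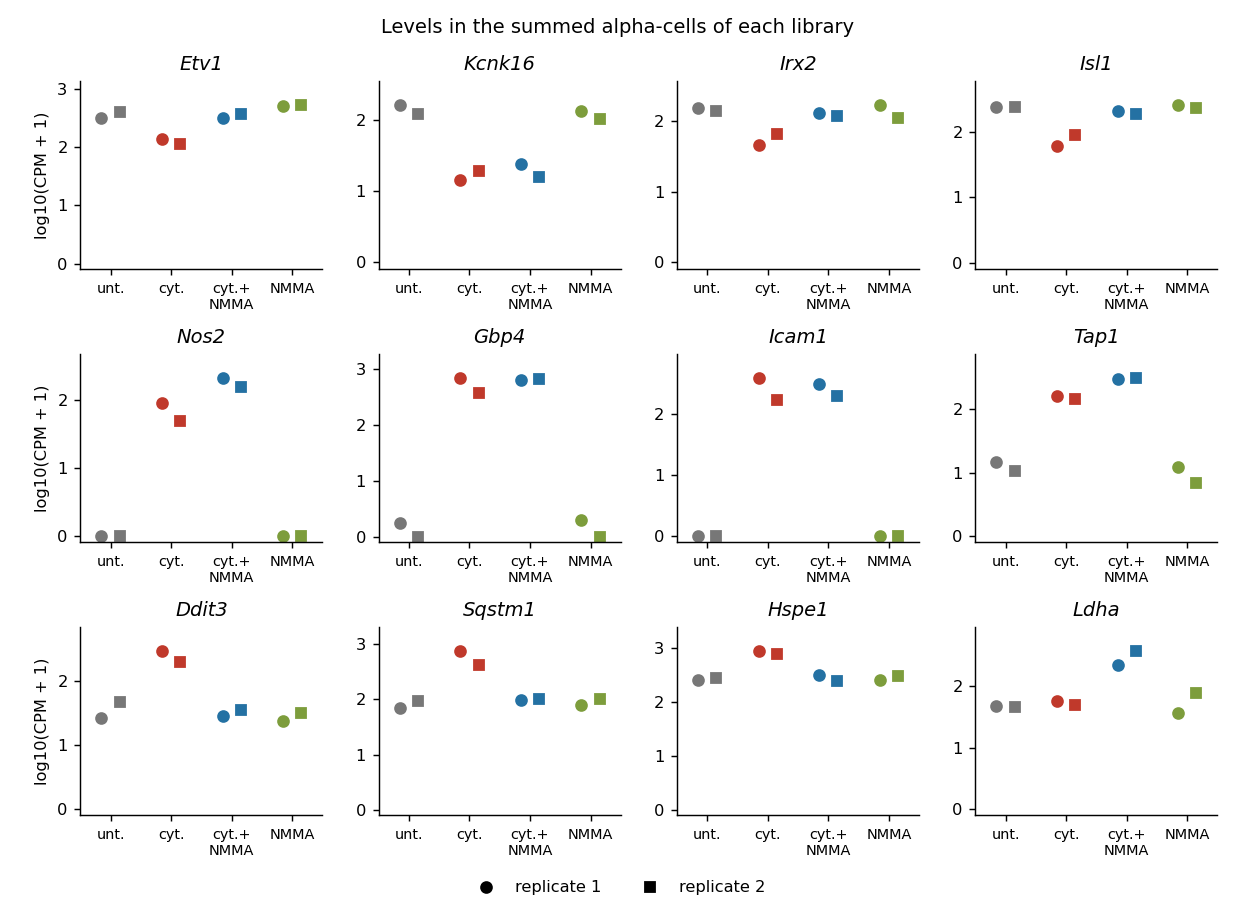
Level of 12 genes, as log10(CPM + 1), in the summed α-cells of each library, grouped by condition; each point is 1 library, a circle for replicate 1 and a square for replicate 2. *Isl1* and *Irx2* are lowest in the 2 cytokine libraries, while *Nos2* is found only where cytokines were given and is higher where NMMA was added.

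Other α-cell markers divided by their behaviour with NMMA. Of 11 tested, 6 were lower with cytokines than untreated (10 with the block; median -1.32), 2 lower than with cytokines + NMMA, and 4 lower with cytokines + NMMA than untreated. *Slc7a2*, a cationic amino acid transporter that takes up arginine, was at 149 and 187 CPM untreated, 53.8 and 77.5 with cytokines and 68.1 and 58.7 with cytokines + NMMA. It was low in all 4 cytokine libraries, by -1.32 ± 0.24 (adjusted p 0.000795) and -1.40 ± 0.23 (adjusted p 0.000376), with a difference of 0.08 ± 0.25 between them. *Smarca1*, a chromatin remodeller, fell by 1.68 ± 0.32 and, with NMMA present, by 1.33 ± 0.28 (adjusted p 0.00134 and 0.00397, the latter 0.0726 without cytokines + NMMA replicate 2). *Tmem27* went from 2386 and 1848 CPM to 1202 and 674 with cytokines and 988 and 769 with cytokines + NMMA (adjusted p 0.0198 with cytokines). *Ttr*, the thyroxine carrier transthyretin, was at 7039 and 6190 CPM untreated, 5301 and 3826 with cytokines, 5007 and 2851 with cytokines + NMMA and 6861 and 5044 with NMMA. Its log2 differences from untreated, -0.54 ± 0.27 and -0.75 ± 0.27, did not pass (adjusted p 0.183 and 0.122) and both passed with the block (-0.56, adjusted p 0.0184, and -0.80, adjusted p 0.00126).

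*Kcnk16*, *Slc30a8*, *Mrln*, *Ddc*, *Ctxn2* and *Wnt4* were among the 10 largest falls with cytokines + NMMA against untreated, and all but *Wnt4* were also lower with cytokines. *Kcnk16*, a two-pore potassium channel, was at 166 and 121 CPM untreated, 13.5 and 18.3 with cytokines and 22.9 and 14.7 with cytokines + NMMA. It was low in every cytokine-treated library, by -3.10 ± 0.32 (adjusted p 2.66e-06) and -2.89 ± 0.28 (adjusted p 7.3e-07). *Slc30a8*, the granule zinc transporter, was at 462 and 339 CPM untreated, 141 and 67.8 with cytokines and 61.3 and 37.1 with cytokines + NMMA (adjusted p 0.0447 with cytokines). *Mrln*, *Ddc* and *Ctxn2* behaved alike, at -2.99 ± 0.38, -2.64 ± 0.42 and -2.36 ± 0.41 with cytokines and -3.22 ± 0.34, -2.69 ± 0.36 and -2.46 ± 0.35 with cytokines + NMMA. *Wnt4*, a secreted Wnt ligand, passed the test against untreated with cytokines + NMMA and not with cytokines. It was at 221 and 202 CPM untreated, 123 and 131 with cytokines and 18.2 and 51 with cytokines + NMMA (-2.64 ± 0.34, adjusted p 0.000263), and was 1.91 higher with cytokines than with cytokines + NMMA (± 0.35, adjusted p 0.00497). Over the series, 118 of the 716 lower genes were lower in cytokines + NMMA as well, and 242 of 716 (33.8%) were lower with cytokines than with cytokines + NMMA.

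Of the 10 largest falls with cytokines, *Oxtr*, *Hapln1*, *Hepacam2* and *Dbpht2* were lower with cytokines than with cytokines + NMMA and lower in both than untreated. *Oxtr*, the oxytocin receptor, was at 84.3 and 88.4 CPM untreated, 2.24 and 8.61 with cytokines and 43.8 and 43.2 with cytokines + NMMA (-3.73 ± 0.35 and -2.74 ± 0.38, adjusted p 1.21e-06 and 0.00032). The cytokine + NMMA libraries lay between the other groups and differed from untreated by -0.99 ± 0.23 (adjusted p 0.0105). *Hapln1*, a hyaluronan link protein, went from 92.1 and 89.5 CPM to 6.73 and 1.08, with 17.5 and 12.1 under cytokines + NMMA. *Hepacam2* and *Dbpht2* showed the same order, at -3.31 ± 0.37 and -3.87 ± 0.34 against untreated and -2.32 ± 0.40 and -1.96 ± 0.36 against cytokines + NMMA.

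Of 17 receptors and channels through which α-cells sense nutrients and hormones, 7 fell, 0 rose and 10 were not called (median -0.82). *Sstr2*, the somatostatin receptor of α-cells, was at 27.1 and 15.3 CPM untreated and 6.73 and 3.23 with cytokines (-2.21 ± 0.53, adjusted p 0.00725), a call that was lost without untreated replicate 1 (0.0665) or cytokines replicate 2 (0.124). *Abcc8*, a subunit of the ATP-sensitive potassium channel, went from 383 and 368 CPM to 209 and 167 and was at 396 and 266 with cytokines + NMMA. It fell by 1.01 ± 0.23 (adjusted p 0.00571); its difference from cytokines + NMMA (-0.83 ± 0.23, adjusted p 0.0299) missed the threshold without cytokines + NMMA replicate 1 (0.335) or cytokines replicate 2 (0.133). Among exocytosis genes 4 of 14 fell and 1 rose (median -0.44), or 7 and 0 when scaled by total UMIs. *Cplx2*, a complexin that clamps the fusion machinery, was at 160 and 176 CPM untreated, 26.9 and 28 with cytokines and 57.3 and 82.1 with cytokines + NMMA. The 3 groups did not overlap (-2.61 ± 0.26 and -1.33 ± 0.27, adjusted p 1.69e-06 and 0.00392).

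The direction of prohormone-processing enzymes and granins depended on the scaling. Of 14 tested, 5 rose with cytokines and 0 fell (median 0.45), while scaled by total UMIs 1 rose and 2 fell (median -0.05). Against cytokines + NMMA, 2 were higher and 0 lower, or 0 and 3 by total UMIs. *Vgf*, a granin-like secretory protein, was at 214 and 224 CPM untreated, 835 and 448 with cytokines and 1098 and 862 with cytokines + NMMA (1.54 ± 0.29 and 2.16 ± 0.29, adjusted p 0.00179 and 0.000136). It was high in all 4 cytokine libraries. *Pcsk2*, the convertase that makes glucagon from proglucagon, was at 2143 and 2610 CPM untreated and 3670 and 3013 with cytokines, 0.49 ± 0.23 (adjusted p 0.14). *Cpe*, which trims the ends of cleaved prohormones, rose by 1.07 ± 0.25 (adjusted p 0.00611), a call that was lost when scaled by total UMIs (0.52, adjusted p 0.0832), without cytokines replicate 1 (0.0883) or without untreated replicate 2 (0.0747).

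Most NF-κB and interferon regulatory factor genes rose with cytokines. Of 13 NF-κB subunits and inhibitors 11 rose and 0 fell (median 2.09), and 7 were higher than untreated with cytokines + NMMA. Of 7 interferon regulatory factors 5 rose and 0 fell (median 2.02), and 5 were higher with cytokines + NMMA. *Irf1* was at 30.2 and 25.5 CPM untreated, 527 and 378 with cytokines, 326 and 372 with cytokines + NMMA and 22.2 and 18.1 with NMMA. All 4 cytokine libraries stood above the other 4 without overlap (4.02 ± 0.25, adjusted p 2.58e-08). *Socs1*, an inhibitor of JAK signalling, rose from 0.774 and 2.83 CPM to 35.9 and 117 and to 214 and 163 with NMMA. *Tnfaip3*, the NF-κB inhibitor A20, rose by 5.68 ± 0.65 with cytokines and 4.80 ± 0.66 with cytokines + NMMA. Among 20 cytokine receptors and adaptors 7 rose and 2 fell (median 0.76). *Il1r1*, the receptor of IL-1, was one that fell, from 210 and 201 CPM to 96.5 and 92.6, and was at 212 and 193 with cytokines + NMMA (-1.12 ± 0.22 and -1.10 ± 0.22, adjusted p 0.00143 and 0.00364).

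Interferon-inducible GTPases, which restrict pathogens inside cells, were among the genes with the largest rises. *Gbp4* was at 0.774 and 0 CPM untreated, 700 and 382 with cytokines, 653 and 662 with cytokines + NMMA and 1.01 and 0 with NMMA. *Gbp5* was not counted in any α-cell of the 4 libraries without cytokines and was at 121 and 83.9 CPM with cytokines and 150 and 136 with cytokines + NMMA. All 9 guanylate-binding proteins tested rose (median 7.29), as did all 9 immunity-related GTPases (median 5.43). *Igtp* was at 13.9 and 7.93 CPM untreated, 305 and 193 with cytokines and 488 and 560 with cytokines + NMMA; the 3 groups did not overlap (4.52 ± 0.32 and -1.09 ± 0.25, adjusted p 4.53e-08 and 0.00998). *Igtp* was named for its promoter, after its values were seen. At 8500 UMIs at least 1 *Gbp* UMI was found in 94.1 and 90% of α-cells with cytokines and 98.6 and 98.0% with cytokines + NMMA, against 18.7 and 14.8% untreated.

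RefSeq promoter windows (GRCm38.p6, the 250 bases before the annotated start, 5′ to 3′ on the gene's strand) are shown for *Gbp5*, *Igtp* and *Hspe1* because members of these families moved together. Capitals mark matches on either strand to the core of the interferon-stimulated response element (GAAA, any 2 bases, GAAA) and the STAT site TTCNNNGAA in *Gbp5* and *Igtp*, and to the 3-unit heat shock element (GAANNTTC, any 2 bases, GAA) in *Hspe1*.
Gbp5: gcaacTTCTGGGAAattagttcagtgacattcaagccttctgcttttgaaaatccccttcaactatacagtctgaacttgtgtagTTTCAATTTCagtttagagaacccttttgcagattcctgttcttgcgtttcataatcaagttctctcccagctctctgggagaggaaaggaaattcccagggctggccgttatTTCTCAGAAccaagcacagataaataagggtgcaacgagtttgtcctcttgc
Igtp: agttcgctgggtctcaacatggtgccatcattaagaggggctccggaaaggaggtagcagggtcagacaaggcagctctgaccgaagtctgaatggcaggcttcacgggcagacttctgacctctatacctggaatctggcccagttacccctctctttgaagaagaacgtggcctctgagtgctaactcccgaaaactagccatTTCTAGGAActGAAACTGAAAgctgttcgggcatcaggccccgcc
Hspe1: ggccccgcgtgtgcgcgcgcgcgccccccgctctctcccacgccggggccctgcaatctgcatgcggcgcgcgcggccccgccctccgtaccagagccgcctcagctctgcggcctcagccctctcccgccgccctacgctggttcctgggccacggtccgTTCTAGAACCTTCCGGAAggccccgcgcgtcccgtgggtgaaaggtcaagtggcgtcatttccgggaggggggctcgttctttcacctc
The windows are chr3:142496684-142496933 (plus strand), chr11:58199306-58199555 (plus strand) and chr1:55087898-55088147 (plus strand). The *Gbp5* window holds TTTCAATTTC at -165, the element core read on the other strand, with STAT sites at -245 and -52. The *Igtp* window holds GAAACTGAAA at -34 next to a STAT site at -45. In *Hspe1* a pair of overlapping 3-unit heat shock elements starts at -89 and -84.

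The element core was found in 5 of 6 windows of guanylate-binding proteins (5 of the 11 listed genes have a window) and 5 of 6 of immunity-related GTPases, against 2.98% of all 32851 windows. It was in 8 of 26 windows of antiviral genes, 3 of 19 of MHC class I genes and 0 of 22 of heat shock genes. The STAT site was in 2 of 6, 4 of 6, 5 of 26, 2 of 19 and 0 of 22, against 7.02% of all windows. The 2-unit heat shock element GAANNTTC was in 7 of 22 windows of heat shock genes against 6.69% of all, and the 3-unit element, which contains it, in 2 of 22, *Hspd1* and *Hspe1*, against 0.466%. A match describes letters in a window and no binding was measured.

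Most genes of antigen presentation rose. Of 20 MHC class I genes 19 rose with cytokines (median 2.13) and 20 with cytokines + NMMA. *Tap1*, the peptide transporter, was at 13.9 and 9.63 CPM untreated, 159 and 143 with cytokines and 296 and 313 with cytokines + NMMA (3.69 ± 0.28 and 4.70 ± 0.27, adjusted p 6.59e-08 and 3.04e-09). *H2-T23*, a non-classical class I molecule, was at 72 and 90.7, 280 and 441, and 1130 and 995 CPM in the same order. In both genes the 3 groups stood apart with cytokines + NMMA highest (-1.01 ± 0.22 and -1.55 ± 0.24 for cytokines against cytokines + NMMA, adjusted p 0.00696 and 0.000642). The 3 class II genes tested rose too (median 4.89): *Cd74* was at 1.55 and 2.83 CPM untreated, 58.3 and 79.6 with cytokines and 208 and 73.4 with cytokines + NMMA, a call (adjusted p 0.0134) that was lost without any 1 untreated or cytokine library (0.0881 to 0.137). *Cd274*, which encodes PD-L1, rose from 8.51 and 7.93 to 195 and 216 CPM and was at 120 and 189 with NMMA present (4.64 ± 0.30, adjusted p 2.94e-08). *Icam1*, an adhesion molecule, was at 0 in the 4 libraries without cytokines, 397 and 172 CPM with cytokines and 320 and 202 with cytokines + NMMA.

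Of 25 antiviral genes 18 rose with cytokines (median 2.07) and 23 with cytokines + NMMA. *Zbp1*, a sensor of nucleic acids, went from 0.774 and 0 CPM to 98.7 and 128 and to 166 and 200. *Ifitm2*, which blocks viral entry, was at 137 and 112 CPM untreated, 150 and 153 with cytokines and 1105 and 791 with cytokines + NMMA. Only the libraries with both treatments were high (0.29 ± 0.23 against untreated, adjusted p 0.406; -2.64 ± 0.23 against cytokines + NMMA, adjusted p 5.61e-06). With cytokines, 12 of 20 MHC class I genes (median -0.89), 8 of 25 antiviral genes (median -0.84; 14 with the block) and 5 of 9 immunity-related GTPases (median -1.45; 8 with the block) were lower than with cytokines + NMMA, and 0 of each were higher. Of the guanylate-binding proteins 1 of 9, *Gbp10*, was lower (median -0.38). *Tgtp1* and *Tgtp2* are near-identical copies between which reads may be split, so their values are uncertain.

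**Figure D3:**
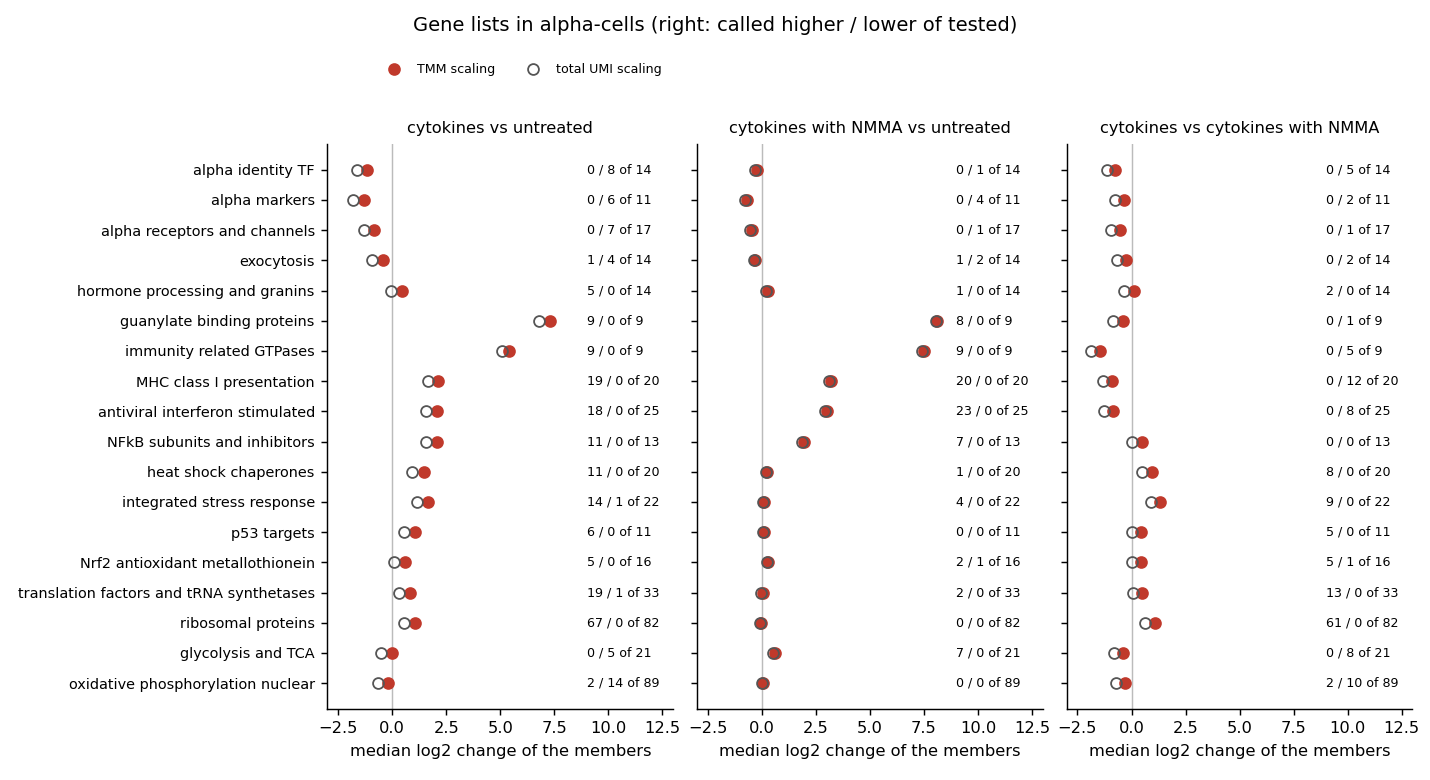
Median log2 difference of 18 gene lists in α-cells for 3 comparisons, scaled by TMM (filled) or by total UMIs (open), with the number of members called higher and lower of those tested beside it. Guanylate-binding proteins and immunity-related GTPases lie farthest to the right with cytokines, at 7.29 and 5.43, and α-cell transcription factors lie at -1.15.

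*Nos2* UMIs were counted in α-cells after cytokines. *Nos2* (ENSMUSG00000020826, chr11:78920787-78960254, plus strand) was at 0 in the 4 libraries without cytokines, at 87.5 and 47.4 CPM with cytokines and at 210 and 154 with cytokines + NMMA. The groups did not overlap. Against a floor of 3 UMIs over the untreated group, *Nos2* was at least 61.5-fold higher with cytokines and at least 189-fold higher with cytokines + NMMA. It was lower with cytokines than with cytokines + NMMA (-1.51 ± 0.29, adjusted p 0.00587), a difference that missed the threshold when *Gcg* had to be at least 80% of H (adjusted p 0.16). Per library the α-cell level was 36.1 and 27.6% of the β-cell level with cytokines and 46.9 and 34.4% with cytokines + NMMA.

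A *Nos2* UMI was found in 9 of 34 α-cells (26.5%, exact 95% interval 12.9 to 44.4) and 8 of 50 (16%, 7.2 to 29.1) with cytokines at 8500 UMIs. With cytokines + NMMA it was found in 26 of 73 (35.6%, 24.7 to 47.7) and 17 of 51 (33.3%, 20.8 to 47.9), and in 0 of 75, 81, 48 and 82 α-cells of the libraries without cytokines, which, at 3 counts of the total, allows a share of cells with a UMI of up to 4% in the first. Without thinning the shares were 34.2 and 22.8%, and 41.0 and 44.1%. β-Cells had a *Nos2* UMI in 45.7 and 41.2% with cytokines and 64.3 and 54.3% with cytokines + NMMA, and hormone-poor cells (H under 1%) in 25.5 and 17.0% and in 36.8 and 46.3%. The α-cell shares were thus close to those of hormone-poor cells of the same libraries, a mixed group in which some cells may also make *Nos2*, and free RNA from β-cells as a source of these UMIs was not tested.

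**Figure D4:**
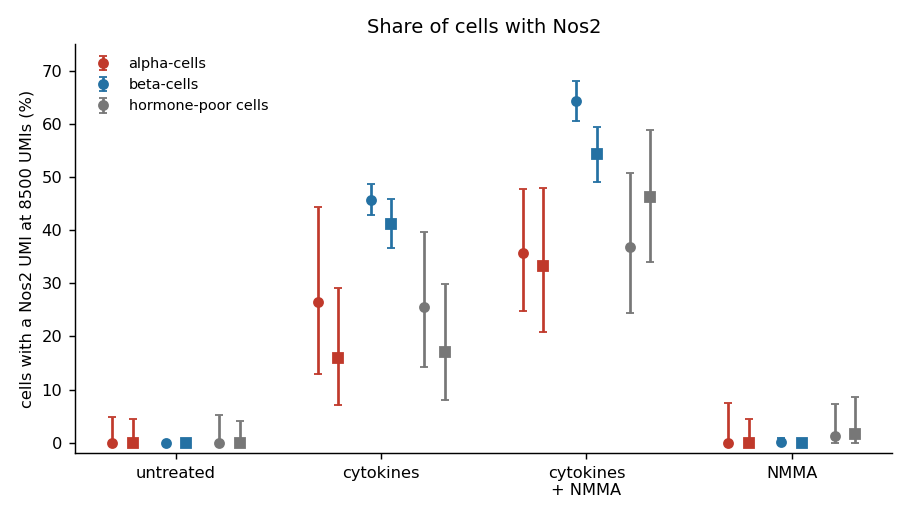
Share of cells with a *Nos2* UMI at 8500 UMIs per cell, by library (circle, replicate 1; square, replicate 2) and cell group, with exact 95% binomial intervals that cover counting error only. α-Cell shares run from 16 to 35.6% in the 4 cytokine libraries and are 0 in the other 4.

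α-Cells with and without a *Nos2* UMI were compared within the cytokines + NMMA libraries, where each kind had at least 10 cells per library. Of 3771 genes tested, 35 were higher (0.928%) and 4 lower (0.106%) in Nos2-positive cells, from 4 sums that share 2 libraries. The adjusted p-values of this split thus say little about agreement between the 2 libraries. *Nupr1*, a stress-induced chromatin protein, was at 259 and 41.8 CPM in positive and 27 and 6.87 in negative cells (3.14 ± 0.39, adjusted p 2.6e-12). *Tnfaip2*, an NF-κB target, was at 212 and 376 CPM in positive and 59.0 and 92.7 in negative cells (1.93 ± 0.27). *Ccl2*, a chemokine, and *Lrg1*, an acute-phase glycoprotein, were also higher (1.13 ± 0.17 and 1.74 ± 0.27). *Iapp*, the only β-cell marker tested, was higher too, at 13962 and 7421 CPM in positive and 9022 and 4934 in negative cells. Its difference was 0.61 ± 0.12 (edgeR adjusted p 9.88e-05). The part of β-cell RNA in the split was not tested. A log2 difference over 0 was found for all 9 guanylate-binding proteins (1 called higher), 21 of 24 antiviral genes (2 called higher) and 1 of 16 heat shock genes (1 called lower), beside 1889 of all 3771 genes. *Hspa1b* was among the 4 lower genes (-1.07 ± 0.30, adjusted p 0.0328), with *Asb4*, *Fkbp3* and *Serpina7*. *Serpina7* turned to 0.33 (adjusted p 0.992) when cells were thinned to 3000 UMIs. For *Hspa1a* the direction depended on depth. At 8500 UMIs it was found in 6 of 26 and 1 of 17 Nos2-positive cells, against 5 of 47 and 1 of 34 negative ones. At 3000 UMIs it was found in 2 of 22 and 0 of 13, against 7 of 56 and 3 of 46. With cytokines alone, *Icam1* was found in 9 of 9 and 6 of 8 Nos2-positive α-cells, against 11 of 25 and 14 of 42 negative ones, and *Gbp4* in 9 of 9 and 8 of 8, against 15 of 25 and 30 of 42. At 3000 UMIs this did not hold in each library: *Icam1* was in 3 of 4 and 1 of 4 positive cells, against 17 of 34 and 17 of 53, and *Gbp4* in 2 of 4 and 3 of 4, against 17 of 34 and 27 of 53.

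Genes that were higher with cytokines than both untreated and cytokines + NMMA, here called nitric oxide-dependent, numbered 435 (4.69% of those tested), or 38.0% of the 1144 that rose (716 of 1466, 48.8%, with the block). The number depended on the processing. Scaled by total UMIs, 209 genes (2.25%) were higher with cytokines than with cytokines + NMMA, and with DESeq2 316 of 6572. Under those settings the nitric oxide-dependent genes can number no more than that. Of the 1144, 354 (30.9%) were also higher with cytokines + NMMA than untreated, 15 of the 435 among them. The comparisons share the cytokine or the untreated libraries, so genes in common are given as counts and support nothing further. None of the rising guanylate-binding proteins, immunity-related GTPases, antiviral, MHC class I, NF-κB or IRF genes was nitric oxide-dependent. The nitric oxide-dependent genes included 8 of 14 rising genes of the integrated stress response and 5 of 6 p53 targets and growth-arrest genes. Also among them were 7 of 11 rising heat shock chaperones and 3 of 5 Nrf2 targets. So were 13 of 19 translation factors and tRNA synthetases and 61 of 67 ribosomal protein genes.

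The integrated stress response halts translation and induces *Ddit3* and *Atf4* targets. Of its 22 genes 14 rose with cytokines and 1 fell (median 1.64), and 9 were higher than with cytokines + NMMA. *Ddit3*, which encodes CHOP, was at 25.5 and 46.5 CPM untreated, 294 and 195 with cytokines, 27 and 33.7 with cytokines + NMMA and 22.2 and 31 with NMMA. The cytokine libraries stood alone (2.71 ± 0.29 and 3.0 ± 0.30, adjusted p 8.37e-06 and 2.86e-05). A *Ddit3* UMI was found in 76.5 and 68.0% of α-cells with cytokines and in 21.9 and 23.5% with cytokines + NMMA at 8500 UMIs. *Phgdh*, the first enzyme of serine synthesis, went from 3.87 and 9.07 CPM to 56.1 and 49.5 and was at 3.37 and 5.18 with NMMA present (2.93 ± 0.43 and 3.61 ± 0.48). *Ppp1r15a*, the eIF2α phosphatase subunit GADD34, and *Atf5* followed the same pattern, at 2.08 ± 0.27 and 1.54 ± 0.26 against untreated and 2.31 ± 0.28 and 2.30 ± 0.28 against cytokines + NMMA. *Cebpb* was high in all 4 cytokine libraries, at 592 and 237 CPM with cytokines and 326 and 240 with cytokines + NMMA against 44.9 and 49.3 untreated.

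Of 11 listed p53 targets and growth-arrest genes 6 rose (median 1.03) and 5 were higher than with cytokines + NMMA. Scaled by total UMIs 1 rose and 1 fell (median 0.53), and 4 were higher than with cytokines + NMMA. *Gadd45b* counts here as a growth-arrest gene, and a response of p53 itself was not tested. *Gadd45b* was at 31 and 31.2 CPM untreated, 1081 and 430 with cytokines and 74.8 and 36.3 with cytokines + NMMA (4.59 ± 0.57 and 3.74 ± 0.54, adjusted p 0.00288 and 0.00951). *Gadd45a*, of the same growth-arrest family, rose by 1.04 ± 0.29 and was 1.78 ± 0.31 higher than with cytokines + NMMA (adjusted p 0.016 and 0.00168). Of 16 Nrf2 targets and metallothioneins 5 rose and 0 fell (median 0.59), or 3 and 1 by total UMIs. *Sqstm1*, the autophagy receptor p62, was at 69.6 and 92.9 CPM untreated, 747 and 423 with cytokines and 96.4 and 102 with cytokines + NMMA (2.83 ± 0.27 and 2.55 ± 0.27, adjusted p 1.69e-06 and 3.02e-05). *Hmox1*, heme oxygenase, had the same shape, from 17 and 10.2 CPM to 200 and 131 and to 43.1 and 16.4. In each of these genes the cytokine libraries stood above all 6 others.

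Heat shock chaperones fold damaged proteins. Of 20 tested 11 rose with cytokines and 0 fell (median 1.47), 8 were higher than with cytokines + NMMA (median 0.93), and 1, *Bag3*, was higher with cytokines + NMMA than untreated, which was lost without untreated replicate 1 (adjusted p 0.202) or 2 (0.108) or cytokines + NMMA replicate 1 (0.253). Scaled by total UMIs, 7 rose and 2 fell. *Hspe1*, the mitochondrial chaperonin whose promoter is shown above, was at 248 and 276 CPM untreated, 866 and 752 with cytokines, 313 and 236 with cytokines + NMMA and 254 and 294 with NMMA. The cytokine libraries lay apart from the rest (1.62 ± 0.22 and 1.56 ± 0.22, adjusted p 5.63e-05 and 0.000348). *Hsp90aa1* went from 604 and 597 CPM to 2667 and 1655 and to 874 and 699 (1.85 ± 0.25 and 1.46 ± 0.25). *Hsph1*, a co-chaperone of HSP70, was at 44.1 and 74.2, 350 and 361, and 114 and 46.7 CPM; its difference from cytokines + NMMA was 2.13 ± 0.40 (edgeR adjusted p 0.0114) and did not pass with the block (2.12, adjusted p 0.0673) or without cytokines replicate 1 (0.151) or 2 (0.129). *Hspa1a*, named after its values were seen, had replicates too far apart to pass. It was at 58.0 and 106 CPM untreated, 1990 and 849 with cytokines, 592 and 34.6 with cytokines + NMMA and 34.3 and 143 with NMMA (4.10 ± 1.65, adjusted p 0.18). Its UMIs were found in 79.4 and 54.0% of α-cells with cytokines, 15.1 and 3.9% with cytokines + NMMA and 2.7 and 6.2% untreated.

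Most genes of protein synthesis rose relative to the bulk of α-cell genes. Of 82 ribosomal protein genes 67 rose with cytokines and 0 fell (median 1.04), and 61 were higher than with cytokines + NMMA (median 1.08). Scaled by total UMIs the medians were 0.54 and 0.64, with 25 and 35 higher. *Rpl10* was at 1435 and 1416 CPM untreated, 4455 and 2948 with cytokines, 1217 and 1106 with cytokines + NMMA and 1076 and 1129 with NMMA (1.38 ± 0.23 and 1.67 ± 0.24, adjusted p 0.000505 and 0.000348). Of 33 translation factors and tRNA synthetases 19 rose and 1 fell (median 0.81), or 5 and 5 by total UMIs (median 0.30). *Eef1a1*, the elongation factor that brings tRNA to the ribosome, was at 2900 and 2277, 7096 and 4504, and 2448 and 1924 CPM untreated, with cytokines and with cytokines + NMMA. The cytokine libraries were the highest in both genes.

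The nitric oxide-dependent genes that were not in a list included several of the largest changes. *Ccng2*, an atypical cyclin, was at 2.32 and 2.27 CPM untreated, 126 and 65.6 with cytokines and 6.07 and 7.78 with cytokines + NMMA (5.26 ± 0.45 and 3.73 ± 0.39, adjusted p 2.76e-07 and 2.39e-05). *Arrdc4*, an arrestin-domain protein, was at 22.4 and 17.6, 545 and 323, and 60 and 74.3 CPM. *Ankrd33b* was at 24.8 and 22.7, 370 and 235, and 51.2 and 30.2 CPM in the same order. All 3 were highest in the cytokine libraries without overlap. *Arrdc4* also stayed above untreated with NMMA present (1.75 ± 0.29, adjusted p 0.000507).

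Most genes of energy metabolism were not called. Of 21 genes of glycolysis and the TCA cycle 5 fell with cytokines and 0 rose (median -0.02), 8 were lower than with cytokines + NMMA, and 7 were higher with cytokines + NMMA than untreated. *Ldha*, lactate dehydrogenase, was at 46.4 and 44.8 CPM untreated, 56.1 and 49.5 with cytokines, 219 and 378 with cytokines + NMMA and 35.3 and 76.9 with NMMA. Only the cytokine + NMMA libraries were high (0.20 ± 0.38 for cytokines against untreated, adjusted p 0.773; 2.71 ± 0.34 for cytokines + NMMA against untreated, adjusted p 0.000339). *Pgk1*, phosphoglycerate kinase, was at 211 and 271, 114 and 166, and 454 and 550 CPM (-0.77 ± 0.24 and 1.06 ± 0.23 against untreated, adjusted p 0.0295 and 0.0056), the second call being lost without untreated replicate 1 (0.125) or cytokines + NMMA replicate 2 (0.0653). Of 89 nuclear genes of oxidative phosphorylation 14 fell and 2 rose with cytokines (median -0.17; 47 and 0 by total UMIs), and 10 were lower and 2 higher than with cytokines + NMMA (26 and 3 with the block). *Atp5o*, an ATP synthase subunit, was at 151 and 180 CPM untreated, 80.8 and 79.6 with cytokines and 185 and 186 with cytokines + NMMA (-1.05 ± 0.21 and -1.21 ± 0.21, adjusted p 0.00201 and 0.00168).

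Some transcripts were higher with cytokines + NMMA than with cytokines. *Cd14*, the co-receptor for bacterial lipopolysaccharide, was at 3.1 and 1.7 CPM untreated, 20.2 and 18.3 with cytokines, 309 and 189 with cytokines + NMMA and 2.02 and 2.58 with NMMA (2.99 ± 0.52 and 6.70 ± 0.37 against untreated, adjusted p 0.000569 and 3.04e-09). *Trf*, transferrin, was at 5.42 and 18.1, 4.49 and 23.7, 215 and 249, and 12.1 and 16.8 CPM. *Ffar2*, a receptor of short-chain fatty acids, fell with cytokines and rose with cytokines + NMMA, from 35.6 and 44.2 CPM to 11.2 and 14 and to 129 and 89 (-1.62 ± 0.35 and 1.44 ± 0.24, adjusted p 0.00318 and 0.00043). In all 3 genes the cytokine + NMMA libraries were the highest 2 of 8. *Csf3*, the granulocyte colony-stimulating factor, and *Acod1*, which makes itaconate, were likewise lower with cytokines than with cytokines + NMMA, at -3.11 ± 0.36 and -2.79 ± 0.38. *Cd14* and *Acod1* are also expressed by macrophages. Of 11 macrophage markers 2, *Ptprc* and *Aif1*, had no UMI in any α-cell, and the 11 summed to 43.3 and 48.7 CPM untreated, 78.5 and 51.7 with cytokines and 51.9 and 51.8 with cytokines + NMMA. *Cd68* was the member that rose (0.774 and 2.83, 31.4 and 33.4, and 17.5 and 21.6 CPM). The part of macrophage RNA in these values was not tested. *Spp1*, osteopontin, was at 1932 and 1215 CPM untreated, 3504 and 2353 with cytokines and 9562 and 5266 with cytokines + NMMA. The last differed from untreated by 2.24 ± 0.33 (edgeR adjusted p 0.000411). *Iapp*, a β-cell granule peptide, was at 2533 and 2302, 3410 and 6149, and 10460 and 6282 CPM in the same order. *Iapp* was higher than untreated with cytokines (0.98 ± 0.29, edgeR adjusted p 0.0244) and with cytokines + NMMA (1.79 ± 0.29, 0.000665). It was not called between these 2 groups.

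NMMA alone called no gene. With the quasi-likelihood test 0 of 9275 genes (0%) differed from untreated, with 291 at an unadjusted p under 5%, 3 with the block and 0 by DESeq2. *Irx2*, *Isl1* and *Etv1* were at 170 and 112, 258 and 228 and 499 and 526 CPM with NMMA. All gene lists had 0 called members.

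The cytokine response of α-cells was set against that of β-cells of the same libraries by the interaction term of 1 edgeR fit over both. Over 12915 genes the response was higher in α-cells for 226 (1.75%) and lower for 187 (1.45%), and the effect of NMMA under cytokines (cytokines minus cytokines + NMMA) was higher in α-cells for 191 (1.48%) and lower for 154 (1.19%). Scaled by total UMIs the splits were 99 and 809, and 70 and 385. Leaving out 1 library moved the first count to between 231 and 611 and the second to between 167 and 594. *Rgs4*, a regulator of G-protein signalling, was -1.08 in α-cells and 1.33 in β-cells (difference -2.27 ± 0.23, adjusted p 1.25e-10). *Btg1*, an antiproliferative gene, rose by 1.68 in α-cells and fell by 0.74 in β-cells (difference 2.52 ± 0.22, adjusted p 5.07e-14). For the effect of NMMA, 7 of 14 immediate early genes had a more positive difference in α-cells and 0 a more negative one. *Ddit3* was 3.0 higher with cytokines than with cytokines + NMMA in α-cells and 1.31 higher in β-cells (difference 1.72 ± 0.24, adjusted p 3.99e-07), and a *Ddit3* UMI was found in 72.3 and 67.8% of β-cells with cytokines + NMMA, against 21.9 and 23.5% of α-cells. *Cxcl1* went the other way in the 2 cell types, at -1.67 in α-cells and 2.09 in β-cells (difference -3.65 ± 0.25, adjusted p 2.45e-19).

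**Figure D5:**
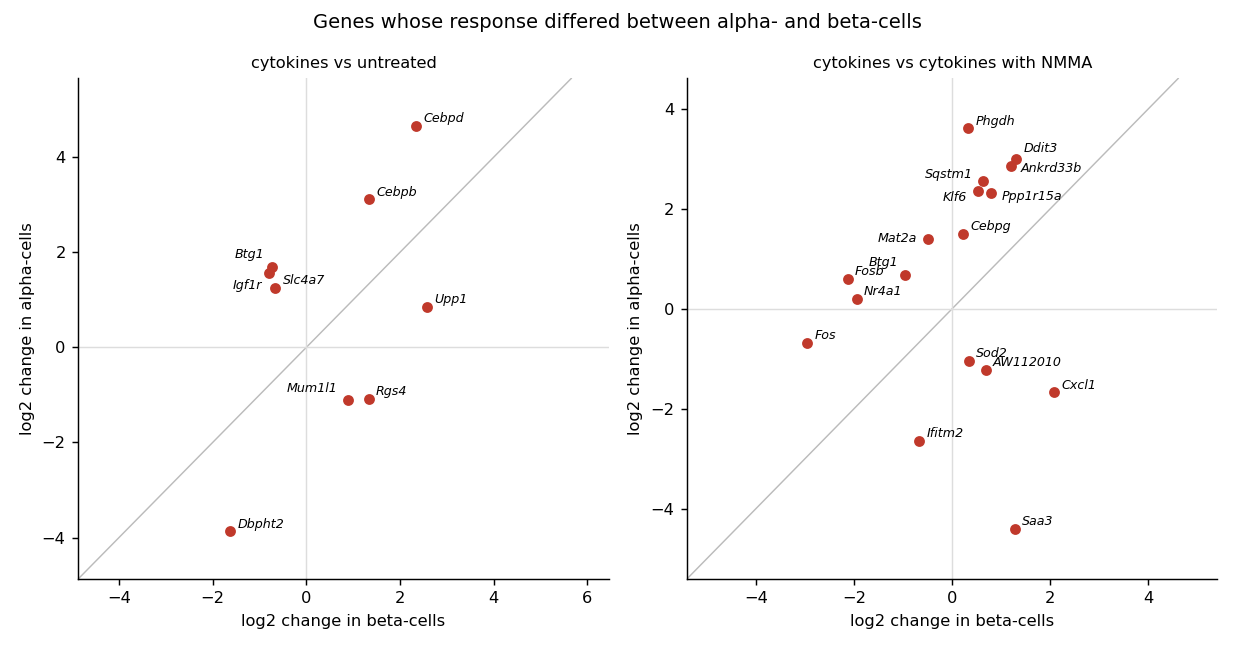
Log2 difference in α-cells (vertical) against that in β-cells (horizontal) for cytokines against untreated (left) and cytokines against cytokines + NMMA (right), for the named genes whose difference between the cell types passed the test; the diagonal marks equal values. On the left *Btg1* lies above the diagonal (1.68 against -0.74) and *Rgs4* below it (-1.08 against 1.33), and on the right *Cxcl1* lies far below it (-1.67 against 2.09).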

How the data were processed

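Pools of islets from 10 mice were treated and sequenced as 8 libraries on the 10x Genomics 3′ system (the labels name kit version 2 and the methods version 3). The deposited matrices hold counts of UMIs per gene and barcode, made by the authors with Cell Ranger against mm10, version 3.0.0 for replicate 1 and 6.0.0 for replicate 2 per the file headers. The 30406 gene IDs in both annotations were kept, and 597 of these carry another symbol in replicate 2.

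α-Cells were chosen by *Gcg*. The members, the gene lists and the genes named were chosen with earlier results of these data known. The rule for named genes took, per comparison, the 10 largest called changes in each direction with a mean of at least 20 CPM and the same direction in both replicates, up to 4 called members per list, 5 genes per direction for the differences between cell types and the *Nos2* split, and the α-cell markers with *Nos2*. No doublet caller was run. Insulin shares were described instead, and a limit of 3 times the median UMIs left out no α-cell, so it removed no doublets. Results of some named genes are not reported here.

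α-Cell UMIs were summed per library and tested with edgeR 4.0.16 (TMM, filterByExpr, quasi-likelihood test, Benjamini-Hochberg adjustment over all genes tested) in R 4.3.3, after recovery of known changes was tested on simulated data; all 8 libraries shared 1 estimate of the spread. Each replicate was 1 pool split over the conditions per the study's methods, on which the pairing of samples by replicate number rests. The deviations of same-numbered libraries from their group means correlated at 0.244 to 0.427 (median 0.334, 6 pairs). Because the replicates also differed in Cell Ranger version, this correlation cannot tell the pools from that difference. Alternatives were the replicate block, DESeq2 1.42.0, total-UMI scaling, no filter, hormone genes left out, stricter cell limits and each library left out. Shares of cells were taken after thinning to 8500 UMIs with exact binomial intervals, which, like the floor of 3 UMIs, cover counting error only.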

Additional observations from a re-analysis of the deposited data

Results flagged for a closer look

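These genes differed between α-cells and β-cells by the interaction term of 1 edgeR fit over both cell types (β-cells with insulin at least 90% of H), and each value is a log2 difference, α minus β, ± SE with the adjusted p over 12915 genes. The first group concerns cytokines against untreated. *Btg1* stood at 2.52 ± 0.22 (adjusted p 5.07e-14), rising by 1.68 in α-cells where it fell by 0.74 in β-cells. *Igf1r*, the IGF-1 receptor, at 2.41 ± 0.26 (2.1e-10) and *Slc4a7*, a bicarbonate transporter, at 2.02 ± 0.23 (2.17e-09) also had opposite signs, at 1.56 and 1.26 in α-cells against -0.80 and -0.66 in β-cells. The fall of *Igf1r* in β-cells did not pass in a fit of β-cells alone (edgeR adjusted p 0.115). *Cebpd* and *Cebpb*, a pair of C/EBP factors, rose in both and more in α-cells, with differences of 2.38 ± 0.24 (1.79e-11) and 1.77 ± 0.23 (1.64e-07); their changes were 4.66 and 3.11 in α-cells and 2.35 and 1.33 in β-cells.

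In the other direction, *Rgs4*, a regulator of G-protein signalling, stood at -2.27 ± 0.23 (adjusted p 1.25e-10), from -1.08 in α-cells and 1.33 in β-cells. *Mum1l1* was at -1.91 ± 0.31 (1.91e-05), from -1.10 in α-cells and 0.89 in β-cells. *Upp1*, a uridine phosphorylase, was at -1.72 ± 0.23 (5.16e-06), and *Dbpht2* at -2.23 ± 0.34 (7e-06), falling by 3.87 in α-cells and 1.63 in β-cells.

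The second group concerns the effect of NMMA, as cytokines against cytokines + NMMA. *Sqstm1* differed by 1.89 ± 0.21 (adjusted p 5.13e-10), *Phgdh* by 3.39 ± 0.44 (1.94e-07), *Ankrd33b* by 1.68 ± 0.23 (2.43e-07), *Mat2a*, which makes S-adenosylmethionine, by 1.92 ± 0.25 (1.27e-07) and *Btg1* by 1.64 ± 0.21 (9.73e-08). Stress response genes were among them, with *Ddit3* at 1.72 ± 0.24 (3.99e-07), *Ppp1r15a* at 1.58 ± 0.26 (3.61e-05) and *Cebpg* at 1.30 ± 0.21 (2.87e-05). The immediate early genes *Fos* at 2.26 ± 0.39 (0.000119), *Fosb* at 2.81 ± 0.73 (0.0177), *Nr4a1* at 1.97 ± 0.56 (0.0336) and *Klf6* at 1.80 ± 0.34 (0.0122) were in this group too. *Fos* was -0.68 in α-cells and -2.95 in β-cells, that is, lower with cytokines than with cytokines + NMMA in both, while *Klf6* was 2.35 and 0.53.

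A further 5 inflammatory genes had a more negative effect in α-cells. *Saa3*, a serum amyloid, differed by -5.62 ± 0.36 (adjusted p 3.54e-16) and was at -4.40 in α-cells and 1.28 in β-cells. Neither of the last 2 values passed in the fit of its own cell type (edgeR adjusted p 0.0757 and 0.114). *Cxcl1* differed by -3.65 ± 0.25 (2.45e-19); scaled over both cell types together it was at 70.1 and 49.4 CPM in α-cells with cytokines and 143 and 230 with cytokines + NMMA, and at 68.0 and 50 falling to 13.7 and 14.9 in β-cells. *Ifitm2* differed by -1.91 ± 0.21 (1.63e-10), *Sod2*, the mitochondrial superoxide dismutase, by -1.40 ± 0.21 (4.1e-06) and *AW112010* by -1.81 ± 0.25 (8.52e-06).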

How the results depend on the processing

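For 346 gene-level values, 5547 of 5963 recomputed values kept their direction and side of the threshold, 396 fell short of it, 19 newly passed and 1 reversed (*Serpina7* in the *Nos2* split, 0.33 at 3000 UMIs). Dropping the minimum of α-cells per library and limiting cells to 3 times the median UMIs left the cells unchanged. The 317 values of each of these settings are in the total and could not differ. Genes called for cytokines against untreated were 1860, and 1011 with DESeq2, 2795 scaled by total UMIs and 1054 to 1773 with 1 library left out. For cytokines against cytokines + NMMA they were 1017, and 541 with DESeq2, 1847 scaled by total UMIs, 1698 with the replicate block and 467 to 1094 with 1 library left out. For cytokines + NMMA against untreated they were 717, and 441 with DESeq2, 1151 with the replicate block and 428 to 909 with 1 library left out. NMMA against untreated gave 0, and 3 with the replicate block, 3 without the filter, 6 with the block and *Gcg* at least 80% of H, a choice added after seeing the data, and 0 to 8 with 1 library left out (8 without untreated replicate 2). The block lost 2 gene-level calls, *Hsph1* and *Ndufa4* (adjusted p 0.0482 without and 0.0555 with it), and gained 4, of which those of *Irx1* and *Ttr* are given above and 1 is of a gene not reported here. For α-cells against β-cells, the cytokine response gave 413, and 169 with DESeq2 and 908 scaled by total UMIs, with 247, 231 and 238 without untreated replicate 1, untreated replicate 2 and cytokines replicate 1 (range 231 to 611). The NMMA effect gave 345, and 163 with DESeq2, with 167, 212, 185, 594 and 591 without cytokines replicate 1, cytokines + NMMA replicate 1 and 2 and NMMA replicate 1 and 2 (range 167 to 594). The *Nos2* split gave 39 calls, 17 at 3000 UMIs, and could not be fitted with 1 library. Thinning to 3000 UMIs gave *Nos2* shares of 10.5 and 7.02% with cytokines. Scaled by total UMIs, the medians of hormone processing (0.45 to -0.05), ER chaperones (0.34 to -0.13) and pro-apoptotic genes (0.26 to -0.21) changed sign against untreated, and those of hormone processing (0.10 to -0.34) and immediate early genes (0.06 to -0.36) against cytokines + NMMA. The cause of these changes was not tested. With 38 to 95 α-cells per library, genes of a few CPM were not measurable.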
